A study of Mus musculus with 12 samples.

Results

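Of the genes that drive or brake entry into S phase, 3 D cyclins, 2 E cyclins, 2 inhibitors of cyclin-dependent kinases and Cdk6, one of the kinases that D cyclins activate, were described across 6 groups of mouse pluripotent cells and embryonic tissue. The genes are Ccnd1, Ccnd2, Ccnd3, Ccne1, Ccne2, Cdkn1b, Cdkn2a and Cdk6. They were taken by name, and each was read from the probe set annotated with its symbol alone. This gave a value for 7 of the 8 genes, out of 22180 genes with such a probe set. The only probe set of Ccne2 also carried the symbol Ints8, so Ccne2 has no value of its own here.

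RNA was measured on 12 arrays, 2 for each of 6 groups, and 4 of the groups are cell lines grown on mouse embryonic fibroblast feeders. ESC, embryonic stem cells, came from E3.5 embryos and grew in N2B27 medium with LIF and the kinase inhibitors CHIR99021 (3 µM) and PD0325901 (1 µM). EpiSC, stem cells of the epiblast, came from E5.75 embryos and grew with FGF2 (12 ng/ml), Activin A (20 ng/ml) and 20% KSR. The rsEpiSC lines, which other label fields name IS-EPI, were derived from embryos of 2 stages, E5.75 (rsEpiSC E5.75) or E6.5 (rsEpiSC E6.5). Their medium held the Wnt pathway inhibitor IWR1 (2.5 µM) and a factor at 20 ng/ml whose name the labels leave out. The other 2 groups are epiblast tissue, taken at E5.75 (epiblast E5.75) or at E6.5 (epiblast E6.5). The strain field names OCT4-deltaPE-GFP x C57BL/6, but its last digit counts up from array to array, as does passage, so neither was used. No label says whether the 2 arrays of a group came from separate cultures, clones, embryos or pools, so p-values reflect the spread among the arrays at hand and no more, and that spread may be technical.

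D cyclins are made in response to growth signals and bind Cdk4 or Cdk6. The pair phosphorylates the retinoblastoma protein, which then releases E2F transcription factors that switch on genes of DNA replication. E cyclins, which E2F factors themselves induce, bind Cdk2 and carry the cell into S phase. Cdkn1b encodes p27, which binds and blocks cyclin E with Cdk2. Cdkn2a encodes 2 proteins from different promoters: p16INK4a, which blocks Cdk4 and Cdk6, and ARF, which stabilises p53. Mouse embryonic stem cells are known for a short G1 phase and low D cyclin levels, and epiblast cells of the early postimplantation embryo divide fast.

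Promoter windows of 250 bases before a RefSeq start (GRCm38.p6) were at hand for 5 of the 8 genes, namely Ccnd3, Ccne1, Cdkn1b, Cdkn2a and Cdk6. The windows of Cdkn2a and Cdk6 are printed because these genes held E2F-type matches and moved between cultured lines in the results that follow. Each is written 5′ to 3′ on the strand of the gene, with motif matches in capitals. Both Cdkn2a windows lie on the minus strand, at chr4:89294620-89294869 upstream and at chr4:89282193-89282442 downstream. The Cdk6 window lies on the plus strand at chr5:3343643-3343892.
Cdkn2a, upstream start: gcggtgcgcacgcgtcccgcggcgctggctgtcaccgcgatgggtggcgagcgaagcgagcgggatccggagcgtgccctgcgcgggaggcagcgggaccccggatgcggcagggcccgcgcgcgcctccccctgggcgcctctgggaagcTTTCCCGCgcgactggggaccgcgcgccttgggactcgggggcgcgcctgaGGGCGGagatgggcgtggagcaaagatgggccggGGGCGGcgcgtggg
Cdkn2a, downstream start: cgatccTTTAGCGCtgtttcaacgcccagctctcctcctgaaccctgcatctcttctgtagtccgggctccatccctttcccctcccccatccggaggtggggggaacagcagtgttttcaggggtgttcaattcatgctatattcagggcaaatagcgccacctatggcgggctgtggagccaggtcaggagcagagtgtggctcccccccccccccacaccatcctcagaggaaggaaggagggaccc
Cdk6: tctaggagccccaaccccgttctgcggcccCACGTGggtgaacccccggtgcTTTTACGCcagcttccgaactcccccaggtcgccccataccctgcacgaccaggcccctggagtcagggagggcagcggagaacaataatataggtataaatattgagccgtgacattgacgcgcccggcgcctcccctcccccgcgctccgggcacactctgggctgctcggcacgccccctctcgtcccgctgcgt

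The windows were searched for 5 short motifs on both strands. Each of the printed windows held 1 match to the E2F motif TTTNNCGC, which 4.28% of 32851 windows of all genes hold. The windows of Ccnd3, Ccne1 and Cdkn1b held no such match. Since the printed windows were chosen for their matches, their number cannot be read against that share. The upstream Cdkn2a window also held 2 GC boxes, spelled GGGCGG and found in 32.7% of all windows. The Cdk6 window also held 1 E box, spelled CACGTG and found in 6.02% of all windows. None of the printed windows held the CCAAT box, spelled CCAAT, which is in 33.8% of all windows. None held the TCF/LEF motif either, spelled TCAAAG and found in 13.8% of all windows. The motifs do not overlap in these windows. G and C made up 78.4% of the upstream and 60% of the downstream Cdkn2a window and 66% of the Cdk6 window, with a median of 52.4% over all windows. The 2 Cdkn2a starts give ARF and p16INK4a, whose transcripts share later exons, and the single Cdkn2a probe set cannot tell them apart.

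All values are log2 signals as deposited, and a difference of 1 is a doubling of signal. The median of all values was 4.21, and folds that rest on signals near or below it are uncertain. Between arrays of a group, genes differed by a root mean square SD of 0.24 to 0.46, and replicate correlations over all genes were 0.943 to 0.988. Tissue arrays had a narrower spread of values over genes (interquartile range 2.23 to 2.68) than cultured arrays (3.07 to 3.31). The cultured groups on average lay 0.14 lower than tissue in the median of all genes, and differences between culture and tissue are to be read against that shift. The 6 markers of naive pluripotency had a mean of 9.20 to 9.41 on the ESC arrays and 3.92 to 4.62 on all others. The 5 markers of the postimplantation epiblast had a mean of 8.79 to 9.09 on tissue arrays and 5.05 to 5.70 on ESC arrays. Their mean was 6.58 to 7.32 in EpiSC, 7.01 to 7.16 in rsEpiSC E5.75 and 7.69 to 8.41 in rsEpiSC E6.5, all below tissue. Both results set ESC and tissue apart as labelled, with EpiSC and rsEpiSC between them in the mean of the epiblast markers. Single markers differed. In rsEpiSC E5.75, Fgf5 (3.98) was below the median of all values, while Otx2 (9.29) was close to tissue (9.31 at E5.75 and 9.03 at E6.5). Of the 3 pluripotency markers, Pou5f1, which marks all of these cell types, was lowest in rsEpiSC E5.75 (4.36) and highest in ESC (7.03). The value in rsEpiSC E5.75 lay near the median of all values (4.21). Nanog was also lowest in rsEpiSC E5.75 (5.32) and highest in ESC (11.02). Sox2 went another way, with 10.12 in rsEpiSC E5.75, 10.60 in ESC and its lowest mean in EpiSC (6.86). The mean of 14 fibroblast markers was 4.28 to 4.48 in ESC, 5.48 to 5.85 in EpiSC, 5.18 to 5.28 in rsEpiSC E5.75. The rsEpiSC E6.5 arrays had 4.72 to 4.79. In tissue it was 4.46 to 4.73. Of the defining fibroblast markers, Col1a2 moved most, from 3.36 in ESC to 7.66 in EpiSC and 7.79 in rsEpiSC E5.75, while Lum stayed between 2.25 and 3.27 and Dcn was highest in tissue (5.30 at E5.75). Lists for visceral endoderm (11 genes) and for extraembryonic ectoderm and trophoblast (8 genes) had means of 3.84 to 4.70 on every array.

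Ccnd2 encodes the D cyclin that varied most. It read 5.72 and 3.62 in ESC, 8.92 and 9.22 in EpiSC, 9.97 and 10.11 in rsEpiSC E5.75, and 8.82 and 8.99 in rsEpiSC E6.5. In epiblast it read 4.75 and 4.59 at E5.75 and 5.89 and 6.84 at E6.5. All 6 arrays of EpiSC and rsEpiSC thus lay above every ESC and tissue array. From the lowest to the highest group mean, Ccnd2 spanned 5.37 log2 units or 41.3-fold, a span at percentile 99.8 of all genes, whose median span was 0.94. Its low end, with 3.62 on 1 ESC array and 4.59 and 4.75 in epiblast E5.75, lay near the median of all values (4.21). Folds against these groups are uncertain to that extent. In order of level the groups ran rsEpiSC E5.75 (10.04), EpiSC (9.07), rsEpiSC E6.5 (8.90), epiblast E6.5 (6.37), ESC (4.67) and epiblast E5.75 (4.67). The first 3 did not pass a test against each other in the main fit. With only the arrays compared in the fit, rsEpiSC E5.75 passed against EpiSC (0.97, limma, adjusted p 0.0264), where 1013 of all genes passed instead of 858. The step from rsEpiSC E6.5 to epiblast E6.5 passed (limma, adjusted p 0.0103), as did that from epiblast E6.5 to ESC (adjusted p 0.0414), while ESC and epiblast E5.75 did not differ beyond their spread.

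Ccnd1, the D cyclin induced in many cell types by mitogens and by Wnt signalling, had the same 3 groups on top but a wider spread within groups. Its values were 7.44 and 6.09 in ESC, 8.12 and 9.92 in EpiSC, 9.25 and 8.74 in rsEpiSC E5.75, and 9.03 and 9.00 in rsEpiSC E6.5. Tissue gave 6.86 and 8.08 at E5.75 and 7.67 and 7.49 at E6.5. All EpiSC and rsEpiSC arrays again lay above all others, though the lowest of them (EpiSC, 8.12) was close to the highest tissue array (8.08). The group means spanned 2.26 log2 units or 4.78-fold: EpiSC 9.02, rsEpiSC E6.5 9.01, rsEpiSC E5.75 9.00, epiblast E6.5 7.58, epiblast E5.75 7.47 and ESC 6.76. No step between neighbours in that order passed the test, and 3 of the 15 pairs of groups did, each with ESC as the lower group.

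Ccnd3, the D cyclin best known from lymphoid and muscle cells, separated culture from tissue. Cultured arrays read 7.85 and 7.34 in ESC, 7.32 and 7.51 in EpiSC, 8.21 and 7.96 in rsEpiSC E5.75, and 7.43 and 7.54 in rsEpiSC E6.5. Tissue arrays read 5.96 and 6.90 at E5.75 and 6.04 and 6.09 at E6.5. Every cultured array was above every tissue array. Among the cultured groups the means ran from 7.42 (EpiSC) to 8.09 (rsEpiSC E5.75), and no pair of them passed the test. The tissue means, 6.43 for E5.75 and 6.07 for E6.5, did not pass either (limma, adjusted p 0.678).

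Cdk6 passed between EpiSC and both rsEpiSC groups. It read 8.62 and 8.54 in EpiSC, 7.32 and 6.89 in rsEpiSC E6.5, 6.14 and 6.08 in rsEpiSC E5.75, and 5.88 and 5.63 in ESC. In tissue it read 5.69 and 6.16 at E5.75 and 6.25 and 6.01 at E6.5. EpiSC stood alone at the top and rsEpiSC E6.5 came next without overlap, while all arrays of the remaining 4 groups lay between 5.63 and 6.25. The group means spanned 2.83 log2 units or 7.09-fold. In the order EpiSC (8.58), rsEpiSC E6.5 (7.10), epiblast E6.5 (6.13), rsEpiSC E5.75 (6.11), epiblast E5.75 (5.93) and ESC (5.75), the first 2 steps passed the test and the later ones did not.

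Ccne1, cyclin E1, varied least of the measured genes and passed in none of the 15 pairs. It read 8.12 and 6.66 in ESC, 6.78 and 8.00 in EpiSC, 8.16 and 8.02 in rsEpiSC E5.75, and 8.27 and 8.02 in rsEpiSC E6.5. Tissue gave 7.80 and 8.47 at E5.75 and 8.54 and 8.72 at E6.5. Epiblast E6.5 was highest on both arrays, and ESC and EpiSC each had 1 array below all arrays of the remaining groups. The means ran from 7.39 (EpiSC and ESC) to 8.63 (epiblast E6.5), a span of 1.24 or 2.36-fold at percentile 69.2 of all genes. EpiSC minus epiblast E6.5 was -1.24 ± 0.47 (SE; limma, adjusted p 0.0799) and ESC minus epiblast E6.5 also -1.24 ± 0.47 (adjusted p 0.0829). Single arrays decided both: the first passed without EpiSC replicate 2 (-1.85, adjusted p 0.0334) or either ESC array (-1.24, adjusted p 0.0311 and 0.0316), the second without ESC replicate 1 (-1.97, adjusted p 0.0125). Without ESC replicate 1, ESC minus epiblast E5.75 passed too (-1.48, adjusted p 0.0469, from -0.74).

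Cdkn1b, which encodes p27, read 6.53 and 8.00 in ESC, 8.33 and 7.31 in EpiSC, 7.39 and 7.20 in rsEpiSC E5.75, and 7.52 and 7.27 in rsEpiSC E6.5. In tissue it read 5.82 and 5.97 at E5.75 and 6.76 and 6.75 at E6.5. The E5.75 tissue arrays were below all others, and 1 ESC array lay below the E6.5 tissue arrays. The means were EpiSC 7.82, rsEpiSC E6.5 7.39, rsEpiSC E5.75 7.30, ESC 7.26, epiblast E6.5 6.76 and epiblast E5.75 5.90, and no step between neighbours passed. Of the 15 pairs, 4 did, each of them a cultured group over epiblast E5.75.

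Cdkn2a was highest in ESC, where Ccnd1 was lowest, and lowest in rsEpiSC E5.75, where Ccnd2 was highest. It read 6.01 and 6.44 in ESC, 5.17 and 5.86 in EpiSC, 4.71 and 4.32 in rsEpiSC E5.75, and 4.91 and 4.84 in rsEpiSC E6.5. Tissue gave 5.61 and 5.19 at E5.75 and 5.01 and 5.25 at E6.5. Both ESC arrays were above all other arrays, and the 4 rsEpiSC arrays were below all others, not far above the median of all values (4.21). The means were ESC 6.23, EpiSC 5.52, epiblast E5.75 5.40, epiblast E6.5 5.13, rsEpiSC E6.5 4.88 and rsEpiSC E5.75 4.52. No step between neighbours passed the test, and the 3 pairs that did all had ESC as the higher group.

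**Figure D1:**
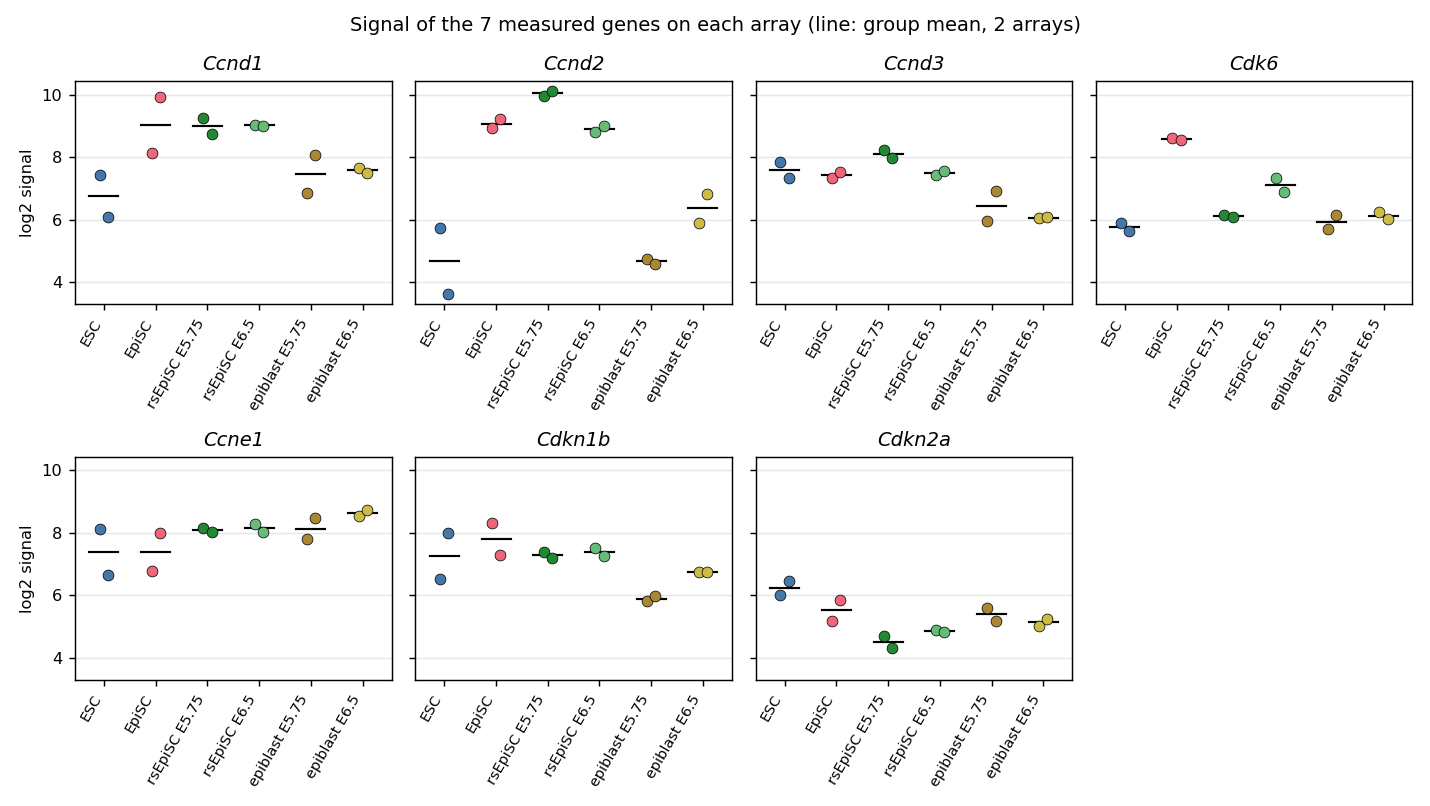
Log2 signal of the 7 measured genes (1 panel each) in the 6 groups; each point is 1 array and each bar the mean of 2 arrays. Ccnd2 and Ccnd1 are higher on all EpiSC and rsEpiSC arrays than elsewhere, Ccnd3 is lower in tissue, and Cdk6 is highest in EpiSC at 8.58.

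Between the cultured lines, EpiSC had more Ccnd2, Cdk6 and Ccnd1 RNA than ESC. Ccnd2 was 4.40 ± 0.53 higher (SE; 21.1-fold, limma, adjusted p 0.000302), Cdk6 2.83 ± 0.27 (7.09-fold, adjusted p 7.49e-05) and Ccnd1 2.26 ± 0.57 (4.78-fold, adjusted p 0.0358). These were 3 of the 7 measured genes, where 6.29% of all genes passed in either direction. The other 4 did not pass: Cdkn2a was -0.71 ± 0.30 (adjusted p 0.253), Cdkn1b 0.56 ± 0.43, Ccnd3 -0.18 ± 0.32, and Ccne1 had means of 7.39 in both groups. In the same comparison 4 of the 14 fibroblast markers rose and none fell, with a median difference of 0.73, and their part in these results was not tested. Fewer cells of a type and less RNA per cell cannot be told apart in such bulk samples. The Ccnd1 call ended without ESC replicate 2 (1.58, adjusted p 0.25) or EpiSC replicate 2 (1.36, adjusted p 0.285). It also ended, at an unchanged 2.26, without either array of rsEpiSC E5.75, rsEpiSC E6.5 or epiblast E6.5, with an adjusted p of 0.0555 to 0.0619. The same held with only the arrays compared (adjusted p 0.194), with only the 8 cultured arrays (0.0545), with every probe set tested (0.122) and with the replicate number as a block (0.0506).

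Both rsEpiSC groups were likewise above ESC in Ccnd2 and Ccnd1 and below it in Cdkn2a. In rsEpiSC E5.75, Ccnd2 rose by 5.37 ± 0.53 (41.3-fold, limma, adjusted p 4.54e-05), Ccnd1 by 2.23 ± 0.57 (adjusted p 0.0268), and Cdkn2a fell by 1.71 ± 0.30 (3.27-fold, adjusted p 0.00334), where 10.3% of all genes passed. Cdk6 there was 0.35 ± 0.27 above ESC and did not pass. In rsEpiSC E6.5, Ccnd2 rose by 4.23, Ccnd1 by 2.25 and Cdk6 by 1.35 (adjusted p 0.00801), and Cdkn2a fell by 1.35 (adjusted p 0.0153), where 8.96% of all genes passed. Of the 14 fibroblast markers, 4 rose from ESC to rsEpiSC E5.75 and 1 from ESC to rsEpiSC E6.5. Without ESC replicate 2, the E6.5 calls on Cdk6 (1.23, adjusted p 0.0512) and Cdkn2a (-1.13, adjusted p 0.110) and the Ccnd1 calls at E5.75 (1.55, adjusted p 0.206) and E6.5 (1.57, adjusted p 0.219) ended. Ccnd1 also lost its call without either array of the rsEpiSC group compared (1.98 and 2.49 at E5.75, 2.23 and 2.26 at E6.5), as did Cdkn2a at E6.5 (-1.38 and -1.32), and Cdk6 at E6.5 lost it without rsEpiSC E6.5 replicate 1 (1.14).

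Against EpiSC, Cdk6 was the measured gene that passed in both rsEpiSC groups, and no other passed in either. It fell by 2.47 ± 0.27 in rsEpiSC E5.75 (5.55-fold, limma, adjusted p 0.000404), where 3.87% of all genes passed. In rsEpiSC E6.5 it fell by 1.47 ± 0.27 (2.78-fold, adjusted p 0.0104), where 3.89% passed. In rsEpiSC E5.75, Ccnd2 was 0.97 ± 0.53 higher than in EpiSC (limma, adjusted p 0.497) and Cdkn2a had means of 4.52 against 5.52 (adjusted p 0.111). Their arrays did not overlap, nor did those of Ccnd3 and Ccne1, which did not pass either. The share of all genes without overlap was not counted, so this adds nothing to the tests. With array weights Cdkn2a passed between rsEpiSC E5.75 and EpiSC (limma, adjusted p 0.0368), where 1567 of all genes passed instead of 858. In rsEpiSC E6.5 the Cdkn2a arrays (4.84 and 4.91) lay below those of EpiSC as well (5.17 and 5.86). The means of Ccnd1 in the 3 groups lay within 0.02 of each other, each difference with an SE of 0.57. Fibroblast markers fell too, 2 of 14 for rsEpiSC E5.75 and 3 of 14 for rsEpiSC E6.5, and their part in the Cdk6 difference was not tested. From EpiSC to rsEpiSC E5.75, where Cdk6 went from 8.58 to 6.11, the means of Tagln went from 9.19 to 7.34, of Acta2 from 8.92 to 7.82, of Col1a1 from 5.99 to 4.67 and of S100a4 from 5.45 to 3.80. Those of Col1a2 (7.66 and 7.79) and Mmp2 (7.23 and 8.30) were not lower, and with 2 of 14 calls not all of the lower means passed. From rsEpiSC E5.75 to rsEpiSC E6.5, Cdk6 went the other way, from 6.11 to 7.10. There Tagln went from 7.34 to 5.43, Acta2 from 7.82 to 6.06, Col1a2 from 7.79 to 4.95 and Thy1 from 5.61 to 6.45. None of the 14 markers passed between these 2 groups, with a median difference of -0.18. The E6.5 call ended without EpiSC replicate 1 (-1.43, adjusted p 0.0823) or rsEpiSC E6.5 replicate 2 (-1.26, adjusted p 0.163), and the E5.75 call held in each refit.

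**Figure D2:**
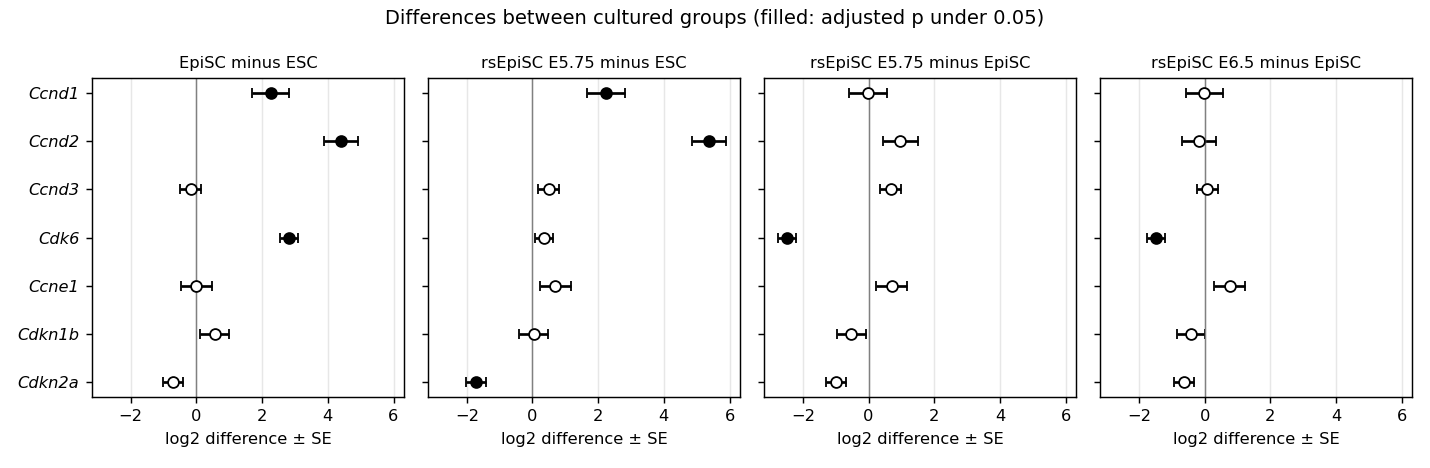
Log2 difference ± SE of the 7 genes in 4 comparisons between cultured groups of 2 arrays each; filled points have an adjusted p under 0.05 (limma). Ccnd2, Cdk6 and Ccnd1 are filled in EpiSC minus ESC, and Cdk6 is filled, at -2.47 and -1.47, in both comparisons with EpiSC.

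No difference between the stages passed the main test in the 7 genes. rsEpiSC E6.5 minus rsEpiSC E5.75 gave 0 calls among them and 0.0857% among all genes with limma, and epiblast E6.5 minus epiblast E5.75 gave 0 and 0.0225%. At an unadjusted p under 0.05, 1 of the 7 was counted in each comparison, beside 1033 and 2819 of all genes. In rsEpiSC that gene was Cdk6, 1.00 ± 0.27 higher at E6.5 (limma, adjusted p 0.437), with both E6.5 arrays above both E5.75 arrays. Cdk6 passed with array weights (limma, adjusted p 0.0318), where 257 of all genes passed instead of 19. In tissue it was Ccnd2, 1.69 ± 0.53 higher at E6.5 (limma, adjusted p 0.236), again without overlap. Other genes of the set had no overlap either: Ccnd2, Ccnd3 and Cdkn2a in rsEpiSC, and Ccne1 and Cdkn1b in tissue. The share of all genes without overlap was not counted. Cdkn1b in tissue was 0.86 ± 0.43 higher at E6.5 (adjusted p 0.438). For Ccnd2 the stage difference in rsEpiSC was -1.14 ± 0.53, opposite in sign to that in tissue. It passed with only the arrays compared (limma, adjusted p 0.0124), where 157 of all genes passed instead of 19. The difference between the 2 stage differences was -2.83 ± 0.74 (limma, adjusted p 0.330), and 0 of the 7 genes passed that test, where 0.00902% of all genes passed. At an unadjusted p under 0.05, Ccnd2 was the 1 gene of the set counted, beside 1919 of all genes.

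On average over the 4 cultured groups, there was more Ccnd2, Ccnd3, Cdkn1b and Cdk6 RNA than in the 2 tissue groups. Ccnd2 was 2.65 ± 0.32 higher (6.29-fold, limma, adjusted p 9.21e-05), Ccnd3 1.40 ± 0.20 (2.63-fold, adjusted p 0.000232), Cdkn1b 1.12 ± 0.27 (2.17-fold, adjusted p 0.00607) and Cdk6 0.86 ± 0.17 (1.81-fold, adjusted p 0.00195). These 4 of 7 stand beside 42.3% of all genes that passed, so the share is not far from the background. Only Ccnd3 had no overlap between the 8 cultured and the 4 tissue arrays. The share of all genes without such overlap was not counted, so whether this is particular to Ccnd3 is not known. The same limit holds for Cdkn1a and Cdk4 below. Ccnd1 was 0.93 ± 0.35 higher (limma, adjusted p 0.0506), Ccne1 was -0.63 ± 0.29 (adjusted p 0.0943), and Cdkn2a was 0.02 ± 0.19. With arrays centred on their median Ccnd1 passed (1.07, limma, adjusted p 0.0394), and after quantile normalization Ccne1 did (-0.81, adjusted p 0.0481). Ccnd1 passed without ESC replicate 2 (1.10, adjusted p 0.0205), EpiSC replicate 1 (1.15, adjusted p 0.011) or epiblast E5.75 replicate 2 (1.23, adjusted p 0.0247), and Ccne1 without ESC replicate 1 (-0.81, adjusted p 0.0174) or EpiSC replicate 2 (-0.78, adjusted p 0.0364). The ESC group lay apart from this average in Ccnd2, with a mean of 4.67 as in epiblast E5.75. Cdk6 was near its tissue means (5.93 and 6.13) in ESC (5.75) and rsEpiSC E5.75 (6.11). Neither group passed for Cdk6 against either tissue group, and only EpiSC (8.58) and rsEpiSC E6.5 (7.10) had higher Cdk6 means. Of 14 fibroblast markers 4 rose and 2 fell between tissue and the average of culture, and of 11 visceral endoderm markers 1 rose and 5 fell. Their part in these differences was not tested. Feeders were used for the 4 cultured groups alone, so culture and feeders cannot be told apart.

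Against epiblast of their own stage, both rsEpiSC groups had more Ccnd2 and Ccnd3 RNA. In rsEpiSC E5.75, Ccnd2 was 5.37 ± 0.53 higher (limma, adjusted p 9.34e-05), Ccnd3 1.65 ± 0.32 (3.15-fold, adjusted p 0.00442) and Cdkn1b 1.40 ± 0.43 (2.64-fold, adjusted p 0.0392), where 21.5% of all genes passed. In rsEpiSC E6.5, Ccnd2 was 2.54 ± 0.53 higher (5.81-fold, adjusted p 0.0103), Ccnd3 1.42 ± 0.32 (2.68-fold, adjusted p 0.0151) and Cdk6 0.97 ± 0.27 (1.96-fold, adjusted p 0.038), where 12.5% passed. Ccnd1 was 1.53 and 1.44 higher at the 2 stages and passed at neither (adjusted p 0.0756 and 0.121). With only the arrays compared it passed at E6.5 (limma, adjusted p 0.00294), where 3655 of all genes passed instead of 2772. Cdkn2a was -0.88 ± 0.30 at E5.75 (adjusted p 0.0575). At E5.75 both passed without epiblast E5.75 replicate 2 (Ccnd1 2.14, adjusted p 0.039; Cdkn2a -1.09, adjusted p 0.049) or either EpiSC array (adjusted p 0.0389 to 0.0395 and 0.0491 to 0.0495). After quantile normalization the calls on Cdkn1b at E5.75 (1.11, limma, adjusted p 0.129) and on Cdk6 at E6.5 (0.75, adjusted p 0.113) ended. Cdkn2a at E5.75 passed after it (-1.05, limma, adjusted p 0.0401). Cdkn1b at E5.75 lost its call without any 1 array of the rsEpiSC or tissue groups (1.30 to 1.49, adjusted p 0.0525 to 0.173), and Ccnd3 at E5.75 without rsEpiSC E5.75 replicate 1 (1.53, adjusted p 0.0506). At E6.5, Ccnd3 (1.37 to 1.48, adjusted p 0.0555 to 0.117) and Cdk6 (0.76 to 1.19, adjusted p up to 0.258) lost theirs without any 1 of the 4 arrays compared, Cdk6 also without either rsEpiSC E5.75 array. Ccnd2 at E6.5 did so without either rsEpiSC E6.5 array or epiblast E6.5 replicate 1 (2.07 to 2.63, adjusted p 0.0616 to 0.0877).

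EpiSC had more Ccnd2, Cdk6, Cdkn1b and Ccnd3 RNA than epiblast E5.75, the stage they came from. The differences were 4.40 ± 0.53 for Ccnd2 (limma, adjusted p 0.000213), 2.65 ± 0.27 for Cdk6 (6.28-fold, adjusted p 9.05e-05), 1.92 ± 0.43 for Cdkn1b (3.78-fold, adjusted p 0.00864) and 0.98 ± 0.32 for Ccnd3 (adjusted p 0.0429), where 24% of all genes passed. Ccnd1 was 1.55 ± 0.57 (adjusted p 0.0673), and passed without EpiSC replicate 1 (2.45, adjusted p 0.0196), epiblast E5.75 replicate 2 (2.17, adjusted p 0.0347) or either ESC array (adjusted p 0.0465 and 0.0468). ESC, from an earlier stage, had more Ccnd3 (1.16 ± 0.32, adjusted p 0.0237) and Cdkn1b (1.36 ± 0.43, adjusted p 0.0432) than epiblast E5.75, where 21.5% passed. Quantile normalization ended the Ccnd3 call in EpiSC (0.68, adjusted p 0.132) and both ESC calls (Ccnd3 0.87, adjusted p 0.0632; Cdkn1b 1.06, adjusted p 0.142). Single arrays also decided these calls. Without epiblast E5.75 replicate 1, Ccnd3 was 0.51 (adjusted p 0.265) in EpiSC and 0.69 (adjusted p 0.147) in ESC, and without ESC replicate 1 it was 0.90 in ESC. The Ccnd3 call in EpiSC ended too without any 1 array of EpiSC, either rsEpiSC group or epiblast E6.5 (0.89 to 1.08). Cdkn1b in EpiSC lost its call without EpiSC replicate 1 (1.41, adjusted p 0.0845). In ESC, Cdkn1b was 0.63 (adjusted p 0.304) without ESC replicate 2 and 2.10 (adjusted p 0.0048) without ESC replicate 1, and it lost its call without any 1 array of the rsEpiSC or tissue groups (1.29 to 1.44).

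**Figure D3:**
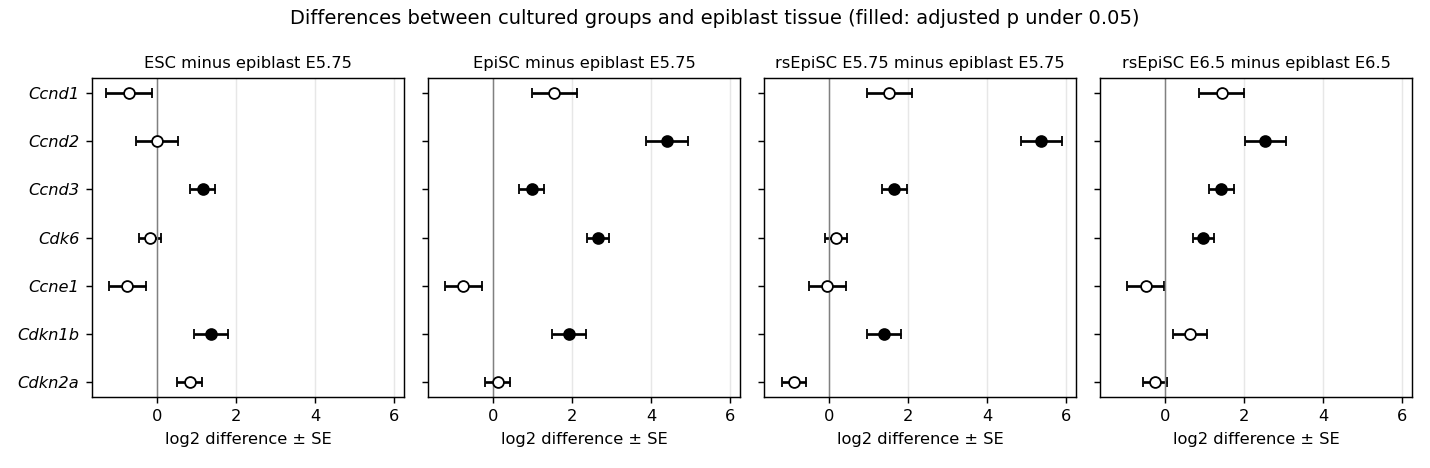
Log2 difference ± SE of the 7 genes between cultured groups and epiblast tissue, 2 arrays a group; filled points have an adjusted p under 0.05 (limma). Ccnd2 is filled for the EpiSC and rsEpiSC groups, up to 5.37, and Ccnd3 is to the right of 0 in every panel.

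Pairs of different stage were tested in the same way. Ccnd2 was 3.67 higher in rsEpiSC E5.75 than in epiblast E6.5 (limma, adjusted p 0.000937) together with Ccnd3 (2.02, adjusted p 0.00168), the 2 calls among the 7 genes where 17.3% of all genes passed. Ccnd1 passed there too with only the arrays compared (1.42, adjusted p 0.00282). rsEpiSC E6.5 minus epiblast E5.75 gave 4 calls where 16.1% passed: Ccnd2 4.23, Cdkn1b 1.50, Cdk6 1.18 and Ccnd3 1.06. EpiSC minus epiblast E6.5 gave 3 where 20.7% passed: Ccnd2 2.71, Cdk6 2.45 and Ccnd3 1.35. ESC were below epiblast E6.5 in Ccnd2 (-1.69 ± 0.53, adjusted p 0.0414) and above it in Ccnd3 (1.53 ± 0.32) and Cdkn2a (1.09 ± 0.30, adjusted p 0.026), where 19.5% passed. Calls that came with 1 array fewer were Ccnd1 in rsEpiSC E6.5 against epiblast E5.75 (2.16 without epiblast E5.75 replicate 2, adjusted p 0.0424, and 1.54 without either EpiSC array, adjusted p 0.0461 and 0.0466), Ccnd1 in EpiSC against epiblast E6.5 (2.34 without EpiSC replicate 1, adjusted p 0.0252) and Cdkn1b there (1.06 without either ESC array, adjusted p 0.0345 and 0.0353). Of the calls made, Ccnd2 in ESC was -0.64 (adjusted p 0.290) without ESC replicate 2 and -2.75 without ESC replicate 1. It ended as well without any 1 array of EpiSC, rsEpiSC or epiblast E6.5, and Cdkn2a in ESC ended without ESC replicate 2 or either epiblast E6.5 array (0.88 to 1.21). In rsEpiSC E6.5 against epiblast E5.75, Ccnd3 (0.59 to 1.11) lost its call without any 1 array of EpiSC, rsEpiSC or epiblast E6.5, or epiblast E5.75 replicate 1. Cdkn1b (1.37 to 1.62) lost it without any 1 array of the rsEpiSC groups or epiblast E5.75, and Cdk6 (0.94 to 1.39) without either rsEpiSC E6.5 array or epiblast E5.75 replicate 1. In EpiSC against epiblast E6.5, Ccnd3 lost it without EpiSC replicate 2 or epiblast E6.5 replicate 1 (1.25 to 1.32).

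The other genes of the G1/S pathway were counted in 6 lists, and a list's median stands beside that of all genes, which was -0.14 for culture minus tissue. Their counts are to be read against the 42.3% of all genes that passed in this comparison in either direction. Among 6 other CDK inhibitors, 4 rose in culture and none fell, with a median of 0.80. Cdkn1a, which encodes the p53-induced inhibitor p21, rose by 4.03 ± 0.29 (limma, adjusted p 2.49e-06). It read 10.98 and 10.82 in ESC, 11.05 and 10.86 in EpiSC, 9.48 and 9.79 in rsEpiSC E5.75, and 8.28 and 9.41 in rsEpiSC E6.5. In tissue it read 5.25 and 6.96 at E5.75 and 6.09 and 5.92 at E6.5, so every cultured array lay above every tissue array. The INK4 genes Cdkn2d (1.13), Cdkn2b (0.90) and Cdkn2c (0.70) rose as well, while Cdkn1c, which encodes p57, was -0.36 ± 0.22 and Cdkn3 0.30 ± 0.30. The tissue means of Cdkn2c, 3.87 at E5.75 and 3.16 at E6.5, were below the median of all values (4.21). Within culture Cdkn1a fell by 2.11 ± 0.47 from EpiSC to rsEpiSC E6.5 (limma, adjusted p 0.0273). That call ended without either EpiSC array or rsEpiSC E6.5 replicate 1. Over all refits with 1 array left out, the difference ran from -2.68 to -1.54.

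Of 9 other cyclins and cyclin-dependent kinases, 5 rose and 1 fell in culture, beside 42.3% of all genes, with a median of 0.56. Cdk4, the other partner kinase of D cyclins, rose by 1.68 ± 0.19 (limma, adjusted p 5.75e-05), and all its cultured arrays (9.57 to 10.71) lay above the tissue arrays (8.22 to 9.30). Mnat1, a subunit of the kinase that activates other CDKs, rose by 1.02, Cdk1, the mitotic kinase, by 0.93 and Ccnb2, a mitotic cyclin, by 0.70. The 1 that fell, named after its value was seen, was Ccnh (-0.65), the cyclin of the same activating kinase. Cyclin A2 (Ccna2) was -0.04 ± 0.10 and Cdk7 0.15 ± 0.27. Between lines, Cdk2, the partner of E cyclins, fell by 1.25 ± 0.26 from ESC to EpiSC (adjusted p 0.0128), but not without ESC replicate 2 or EpiSC replicate 1.

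Of 13 pocket proteins and E2F factors, 1 rose and 5 fell in culture, beside 42.3% of all genes, with a median of -0.33. Rb1, the gene of the retinoblastoma protein, rose by 1.11 ± 0.22 (limma, adjusted p 0.00227). E2f3, an activating E2F, fell by 1.12 ± 0.25, E2f8, a repressing one, by 0.92 ± 0.30, and Tfdp2, which encodes an E2F partner, by 0.87 ± 0.22. E2f1 was -0.03 ± 0.17 and Rbl2 0.01 ± 0.23. Among 19 E2F targets of DNA replication 2 rose and 5 fell in culture, again beside 42.3%, with a median of -0.03. Cdt1, a factor that loads the replicative helicase, rose by 1.69 ± 0.23 and Tk1, thymidine kinase, by 1.56 ± 0.21, while Pola1, a subunit of DNA polymerase alpha, fell by 1.28 ± 0.18 and Gins1 by 0.90 ± 0.16. The helicase gene Mcm2 was -0.02 ± 0.17, and Orc1 -0.03 ± 0.20. The count of 7 E2F targets was 11 after quantile normalization or without EpiSC replicate 2, and 4 with arrays centred on their median or without epiblast E6.5 replicate 2. Between lines, 5 of the 19 E2F targets rose from EpiSC to rsEpiSC E6.5 and none fell, where 3.89% of all genes passed, with a median of 0.94 against 0.02 for all genes. They were Gins1 (1.34), Mcm6 (1.28), Pola1 (1.22), Mcm4 (1.06) and Mcm3 (0.97), the last of these outside the rule for named genes and named after its value was seen. Mcm6 (1.23) and Mcm3 (0.94) rose in rsEpiSC E5.75 too, where 3.87% of all genes passed, with a median of 0.81 over the list. All 19 of these targets read lower on EpiSC replicate 1 than on EpiSC replicate 2, by a median of 0.75, as did 49.9% of all genes. Without EpiSC replicate 1, none of them passed in either comparison, with medians of 0.45 for rsEpiSC E6.5 and 0.40 for rsEpiSC E5.75. Without EpiSC replicate 2, 8 and 5 rose, with medians of 1.27 and 1.19. Leaving out either array of the rsEpiSC group compared also left none.

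Genes for the turnover and activation of cyclins and p27 went both ways in culture against tissue, with 4 of 14 higher, 3 lower, beside 42.3% of all genes, and a median of -0.02. Cdc25b, a phosphatase that activates CDKs, rose by 1.54 ± 0.25 (limma, adjusted p 0.00066) and Ambra1, which directs the breakdown of D cyclins, by 0.82 ± 0.16. Cul1, the scaffold of the ligase that degrades p27 and cyclin E, fell by 1.05 ± 0.24 and Cks2 by 0.73 ± 0.13. Skp2, the part of that ligase that binds p27, was -0.07 ± 0.20, but it rose from ESC to rsEpiSC E5.75 by 1.52 ± 0.33 (limma, adjusted p 0.0118). That call ended without ESC replicate 2 or either rsEpiSC E5.75 array. Over all refits with 1 array left out, the Skp2 difference ran from 1.03 to 2.01. Fbxw7, which binds cyclin E for breakdown, was -0.18 ± 0.26.

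Of 8 upstream regulators, 3 rose and 2 fell in culture, beside 42.3% of all genes, with a median of -0.05. Myc, which induces Ccnd2 and Cdk4 in other cells, fell by 1.96 ± 0.35 (limma, adjusted p 0.00116), from 7.85 and 8.33 in the 2 tissue groups to between 5.13 (ESC) and 6.70 (rsEpiSC E5.75). Foxo3, a forkhead factor that induces Cdkn1b in other cells, rose by 1.57 ± 0.18. Lef1, a nuclear factor of Wnt signalling, fell by 1.23 ± 0.17 over the cultured groups, but differed between them: it was 2.43 ± 0.27 higher in rsEpiSC E5.75 than in EpiSC (adjusted p 0.000441). Mdm2, the p53 ubiquitin ligase, fell by 1.84 ± 0.31 between the same groups, but not past the test without rsEpiSC E5.75 replicate 1. Mycn was -0.35 ± 0.21 and Foxo1 -0.22 ± 0.18. Of the 35 calls on culture against tissue in the 6 lists, 34 held after quantile normalization and 29 with centred arrays, and none changed sign under either.

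**Figure D4:**
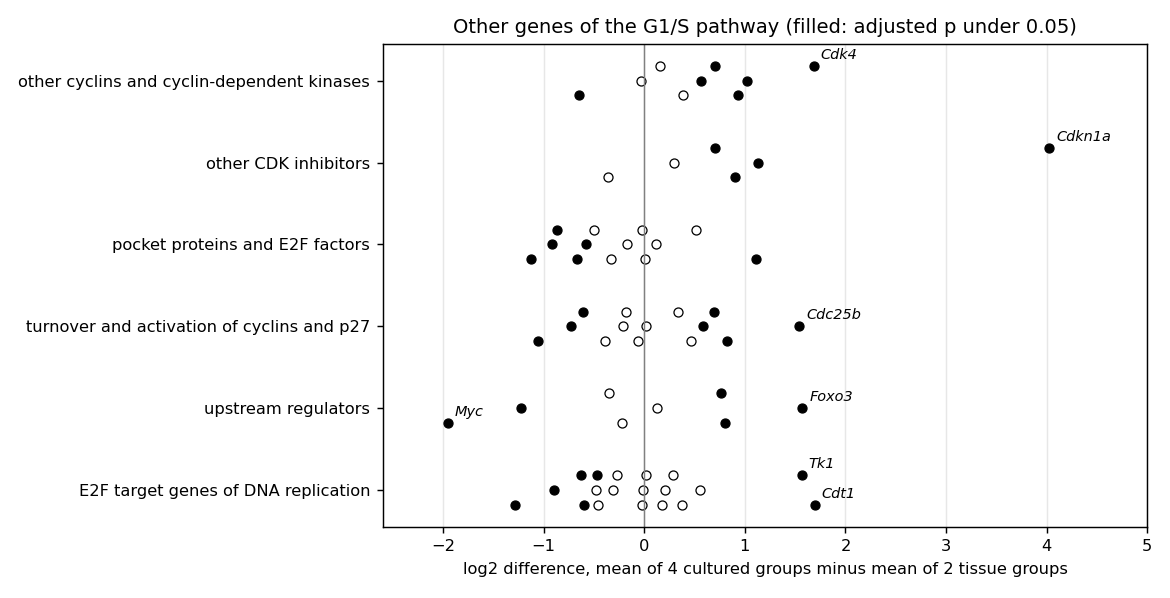
Log2 difference of the other G1/S pathway genes, mean of 4 cultured groups minus mean of 2 tissue groups, with 1 row of points per list; filled points have an adjusted p under 0.05 (limma). Cdkn1a stands apart at 4.03, and the E2F lists have points on both sides of 0.

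For each of the 7 genes, the genes most like it were taken by Pearson correlation of log2 signal over the 12 arrays, among 8903 genes whose group means spanned at least 1. Arrays of a group share their source, so this is a description. Closest to Ccnd2 were Flna (r = 0.969), Tnfaip2 (0.962) and Txndc5 (0.956), and closest to Ccnd1 were Ephb4 (0.958), Zcchc3 (0.948) and Ipo13 (0.939). Ccnd3 was most like Tkfc (0.971), Mtch1 (0.969) and Ilf2 (0.967). Cdk6 was most like Ttyh1 (0.958), Slc39a8 (0.953) and Arfgef3 (0.948), though its rank correlation with Ttyh1 was 0.678. Ccne1 was most like Ranbp1 (0.944), Hnrnpm (0.942) and Rpgrip1l (0.936). Of the inhibitors, Cdkn1b was most like Vegfa (0.938), Per1 (0.933) and Klf11 (0.926), and Cdkn2a was most like Sox15 (0.946), Plet1 (0.943) and Pou5f1 (0.915).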

How the data were processed

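The authors deposited a table of log2 signals, 41345 probe sets by 12 arrays, which the submitters' processing notes tie to RMA and oligo. Of the versions, settings and genome build, the sources used here say nothing. The labels' protocols name a human array, yet the identifiers belong to a mouse probe set table. That table names 1 gene for 23521 probe sets, several for 1814 and none for 16010. The probe set with the highest mean was kept per gene, which left 22180 genes, with no filter on low signal and no further normalization. Precision is limited by 2 arrays a group.

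The test was limma (version 3.58.1, under R version 4.3.3), fitted by lmFit to the means of 6 groups and moderated by eBayes along a variance trend, and checked on simulated data. Benjamini-Hochberg adjustment ran over all genes within each of 17 comparisons, and a difference with an adjusted p under 0.05 passed. Some comparisons share groups and so depend on each other. Alternatives tried: a block on replicate number, 1 array left out, fewer arrays, other normalizations, array weights, no trend, a filter at 4, and other uses of probe sets. The array weights came out equal for both arrays of a group, from 0.48 in epiblast E5.75 to 2.12 in rsEpiSC E6.5. They thus weight groups and not single arrays.

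The genes and lists were chosen with earlier results of these data known. Named are the 8 genes, the 3 most correlated with each, and per list up to 4 genes that passed with the largest differences and up to 2 that did not. Replicate numbers did not pair arrays. Promoter sequences are from RefSeq, build GRCm38.p6.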

Additional observations from a re-analysis of the deposited data

Results flagged for a closer look

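Ccnd2 differed in direction between the stages of rsEpiSC and of epiblast tissue. Both rsEpiSC E6.5 arrays were below both rsEpiSC E5.75 arrays (difference -1.14), while both epiblast E6.5 arrays were above both epiblast E5.75 arrays (difference 1.69). The difference between these differences was -2.83 ± 0.74 (SE, 2 arrays a group). It did not pass after adjustment over all genes (limma, adjusted p 0.330).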

How the results depend on the processing

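Of 40 called differences, 19 held under every alternative and 21 ended under at least 1; none of 888 refits reversed one. Uncalled differences of up to 0.70 changed sign in 55 of 1758 refits. Calls that held were 31 of 40 after quantile normalization, 39 with arrays centred, 29 when every probe set was tested and all 40 without the variance trend or with a filter at 4. Members called moved from 1 to 2 for rsEpiSC E5.75 minus EpiSC, and from 0 to 1 for rsEpiSC E6.5 minus rsEpiSC E5.75, with only the arrays compared or with array weights. For ESC minus epiblast E5.75 the 2 calls became 1 with the replicate block or with every probe set tested, and 0 with only the arrays compared, quantile normalization or array weights. Leaving out 1 array gave 0 to 2 calls for ESC minus epiblast E5.75, 2 to 3 for EpiSC minus ESC and for rsEpiSC E5.75 minus ESC, and 3 to 5 for EpiSC minus epiblast E5.75. It gave 1 to 5 for rsEpiSC E5.75 minus epiblast E5.75, 0 to 3 for rsEpiSC E6.5 minus epiblast E6.5, and 4 to 5 for culture minus tissue. Both stage comparisons stayed at 0 and rsEpiSC E5.75 minus EpiSC at 1. Such refits, each with 1 array fewer, both ended and added calls, and the cause of these changes was not tested. With the replicate block 33 of 40 calls held, and EpiSC minus ESC called 1288 genes against 1396. Deviations of same-numbered arrays correlated at -0.26 to 0.06 over 15 pairs of groups, so the numbers were not taken as a pairing. With the ESC numbers crossed, a choice made after seeing the data, 1415 genes were called.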

Other observations

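The probe set that carries both Ccne2 and Ints8 cannot be assigned to either gene. It read 7.10 and 7.00 in ESC, 4.57 and 6.36 in EpiSC, 6.76 and 6.70 in rsEpiSC E5.75, and 7.10 and 7.52 in rsEpiSC E6.5. In epiblast it read 8.41 and 8.15 at E5.75 and 8.50 and 8.66 at E6.5, so all tissue arrays were above all cultured arrays. The probe set of Ints8 alone, a subunit of the Integrator complex, ran from 6.83 (EpiSC) to 8.24 (epiblast E6.5).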
